A study of Drosophila melanogaster with 12 samples.

Results

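The genes described here are 10 heat shock proteins and co-chaperones of Drosophila melanogaster: Hsp26, Hsp27, Hsp60A, Hsp68, Hsc70-3, Hsc70-4, Hsc70-5, DnaJ-1, stv and Hsf. They were taken by name, each through the probe set that the platform annotation assigns to that gene alone, out of 11982 genes with such a probe set, and each had 1 such probe set. Whole male flies were hybridised to 12 Affymetrix Drosophila Genome 2.0 arrays, each carrying the RNA of 8 pooled males, in 4 groups of 3 arrays. The groups were F1 males whose mothers had been exposed to methylphenidate (MPH) and whose fathers had been exposed to sucrose, F1 males of sucrose-exposed parents, males exposed to MPH for 24 hours, and males exposed to sucrose for 24 hours. All groups carry the designation wt in their titles, and a strain and an age were not given in the labels used here. The labels give for F1 males the agents of their parents' cross, not food of their own, and the series design text names the cross with MPH-exposed mothers for all 6 F1 samples, where the sample labels name both crosses, which were followed here. Values are the deposited log2 signals, on which a difference of 1 is a 2-fold change.

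Heat shock proteins are chaperones that bind unfolded proteins and keep them from aggregating or return them to a folded state. Hsp70-type chaperones do so in cycles of ATP hydrolysis that J-domain co-chaperones start and nucleotide exchange factors end, chaperonins enclose a client in a barrel-shaped chamber, and small heat shock proteins hold clients without ATP. Under stress the transcription factor Hsf binds heat shock elements in the promoters of inducible members, while the cognate (Hsc) members are made without stress. MPH is a stimulant drug that in mammals blocks the dopamine and noradrenaline transporters.

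Hsp60A and Hsc70-4, the mitochondrial chaperonin and the main cytosolic Hsp70 cognate, were higher in MPH-exposed than in sucrose-exposed males, by 1.23-fold and 1.21-fold. They were 2 of 10 genes past an adjusted p of 0.05 (limma, Benjamini-Hochberg over 18769 probe sets). That threshold was passed by 3.35% of all probe sets and by 4.58% of the 11982 genes, each through its highest-mean probe set. Of 17 alternative settings, 9 lost the call of Hsp60A and 11 that of Hsc70-4, with adjusted p-values of up to 0.439 and 0.466, while the direction stayed the same in all 17. The other 8 genes did not pass it in exposed males, and none of the 10 passed it between the F1 groups, where 0.00533% of probe sets did. Hsp68, a stress-inducible Hsp70, had the widest gap between the F1 groups of the 10, 1.27-fold higher in sons of MPH-exposed mothers, with an adjusted p of 0.322. Every one of the 10 genes had a higher mean in the MPH group of both comparisons. So had 44.9% of probe sets and 44.4% of all genes in exposed males, and 59.7% and 63.4% in F1 males. The 10 genes were chosen with earlier results of these data known. Their shares beside those of all probe sets or genes are therefore a description, not a test.

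**Figure D1:**
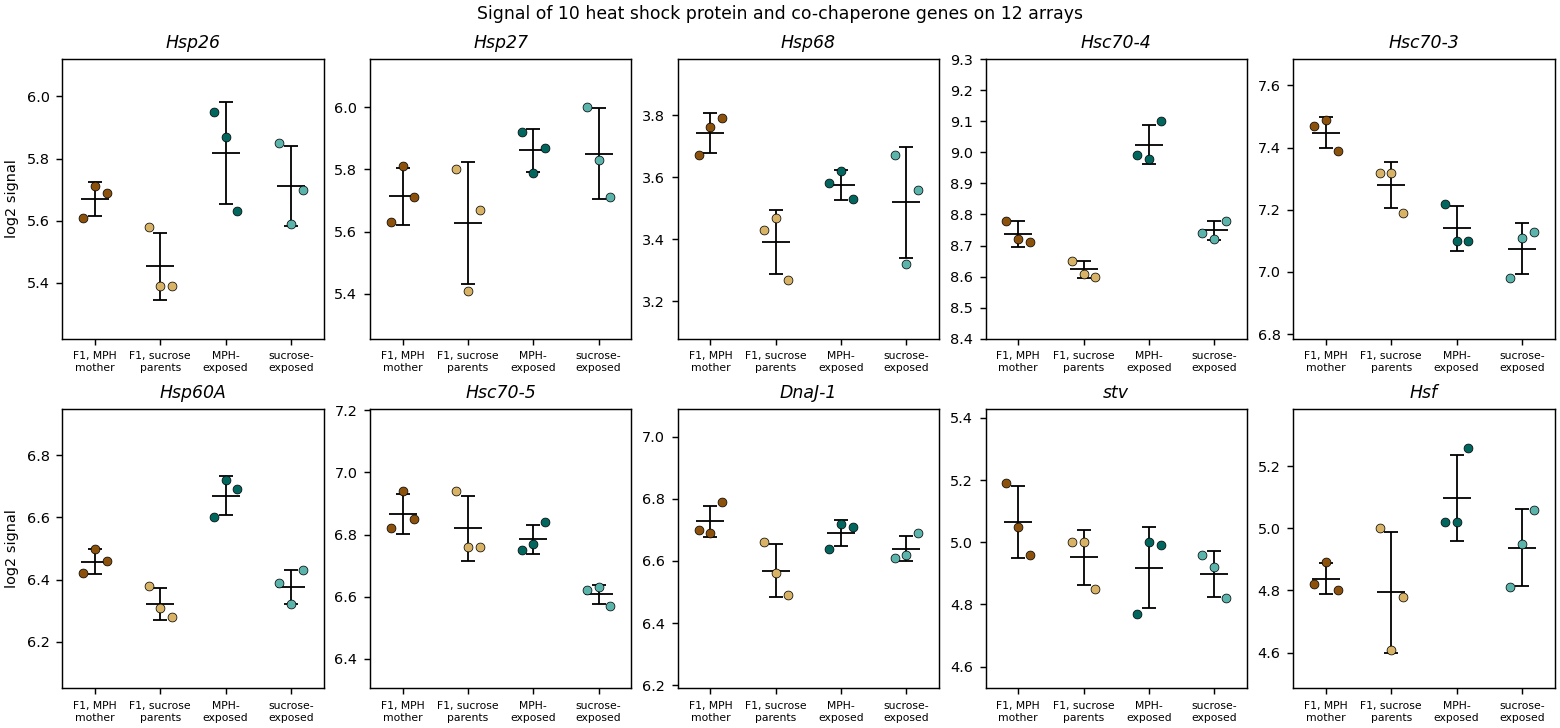
Log2 signal of the 10 genes on the 12 arrays, 1 panel per gene, with each axis spanning the same width of the log2 scale. Points are arrays, horizontal bars group means and whiskers SD (n = 3). Hsp60A and Hsc70-4 show the 3 MPH-exposed arrays above all 9 others, and Hsc70-3 shows the 3 F1 arrays of MPH-exposed mothers above all 9 others.

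Replicate arrays correlated at r = 0.9951 to 0.9975 over all probe sets, and the array medians lay between 1.4950 and 1.5732 on 11 arrays and at 1.3657 on F1 replicate 3 of sucrose parents. Whether the 3 arrays of a group stand for independent fly cultures is not given in the labels, and each p-value therefore rests on variation among these arrays, part of which may be technical. Markers of testis, accessory gland, muscle, gut and fat body were measured on these whole-fly arrays, and 4 female-specific genes averaged 0.03 to 2.47 over all 12. The highest of them, Yp3, averaged 1.70 in MPH-exposed and 1.80 in sucrose-exposed males. It averaged 3.18 in F1 males of MPH-exposed mothers and 3.19 in F1 males of sucrose parents. In whole flies, fewer cells of a type and less RNA per cell cannot be told apart.

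The small heat shock proteins Hsp26 and Hsp27 bind unfolded proteins without ATP, Hsp26 in the cytosol and Hsp27 in the nucleus. In the RefSeq gene order the pair lies close together, with 2 protein-coding genes between, Hsp67Ba and Hsp23, both not analysed here. Hsp26 had signals of 5.61, 5.71 and 5.69 in F1 males of MPH-exposed mothers, against 5.58, 5.39 and 5.39 in F1 males of sucrose parents. In exposed males it had 5.95, 5.87 and 5.63 with MPH, against 5.85, 5.59 and 5.70 with sucrose. The F1 groups did not overlap, while the exposed groups did. The difference was 0.22 ± 0.095 (log2, SE) between the F1 groups, with an adjusted p of 0.611, and 0.11 ± 0.095 in exposed males, with an adjusted p of 0.701. Hsp27 had 5.63, 5.81 and 5.71 in F1 males of MPH-exposed mothers, against 5.80, 5.41 and 5.67 in F1 males of sucrose parents. With MPH the exposed males had 5.92, 5.79 and 5.87, against 6.0, 5.83 and 5.71 with sucrose. Both pairs of Hsp27 groups overlapped, and in exposed males the means were 5.861 with MPH and 5.850 with sucrose. The 95% interval of that difference ran from a ratio of 0.865 to 1.17. Both small heat shock proteins had their lowest group mean in F1 males of sucrose parents.

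Hsp68 is an Hsp70 of the cytosol that is made under stress. Its signals were 3.67, 3.76 and 3.79 in F1 males of MPH-exposed mothers, against 3.43, 3.47 and 3.27 in F1 males of sucrose parents. The exposed males had 3.58, 3.62 and 3.53 with MPH, against 3.67, 3.32 and 3.56 with sucrose. The F1 groups lay apart, and the exposed groups overlapped, the sucrose array at 3.32 being the lowest of the 6. Between the F1 groups the difference was 0.35 ± 0.091 (1.27-fold, 95% interval 1.11 to 1.46), at rank 101 of 18769 probe sets by p (unadjusted p = 0.00174 and adjusted p = 0.322, limma). In exposed males it was 0.057 ± 0.091, with an interval of the fold from 0.909 to 1.19. The F1 difference minus the exposed-male difference was 0.29 ± 0.128, with an unadjusted p of 0.0381 and an adjusted p of 0.283, so a difference between generations was not established over all probe sets. Without F1 replicate 3 of sucrose parents, the array with the low median, the F1 difference of Hsp68 was 0.29, with an adjusted p of 0.693.

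Hsc70-4 is the cytosolic Hsp70 cognate that also strips clathrin from vesicles. It had 8.99, 8.98 and 9.10 in MPH-exposed males, against 8.74, 8.72 and 8.78 in sucrose-exposed males. In the F1 generation it had 8.78, 8.72 and 8.71 in sons of MPH-exposed mothers, against 8.65, 8.61 and 8.60 in sons of sucrose parents. The MPH groups lay above their sucrose groups in both generations without overlap. In exposed males the difference of 0.27 ± 0.065 (95% interval of the fold 1.10 to 1.33) passed the test, with an adjusted p of 0.0333, a call lost in 11 of 17 alternative settings. In F1 males the difference of 0.11 ± 0.065 had an adjusted p of 0.683. The order of the group means was MPH-exposed males, apart from the rest, then sucrose-exposed males and F1 males of MPH-exposed mothers, which overlapped at 8.749 and 8.737, and last F1 males of sucrose parents.

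Hsc70-3 is the Hsp70 of the endoplasmic reticulum, known as BiP in mammals, and is induced by unfolded proteins there. Its signals were 7.47, 7.49 and 7.39 in F1 males of MPH-exposed mothers, against 7.32, 7.32 and 7.19 in F1 males of sucrose parents. It had 7.22, 7.10 and 7.10 in MPH-exposed males, against 6.98, 7.11 and 7.13 in sucrose-exposed males. Sons of MPH-exposed mothers were apart from all other arrays, and the exposed groups overlapped. The F1 difference of 0.17 ± 0.074 had an adjusted p of 0.611 and the exposed-male difference of 0.067 ± 0.074 an adjusted p of 0.774. Between F1 males of sucrose parents and sucrose-exposed males the difference was 0.20 ± 0.074 without overlap (1.15-fold, adjusted p = 0.066). It passed in 5 of 17 alternative settings.

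Hsp60A and Hsc70-5 work in the mitochondrial matrix, Hsp60A as the chaperonin and Hsc70-5 as the Hsp70 that draws in and folds imported proteins. Hsp60A had 6.60, 6.72 and 6.69 in MPH-exposed males, against 6.39, 6.32 and 6.43 in sucrose-exposed males. In F1 males it had 6.42, 6.50 and 6.46 where the mother had MPH, against 6.38, 6.31 and 6.28 where both parents had sucrose. Every MPH array stood above every sucrose array of its generation. The exposed-male difference of 0.29 ± 0.068 (95% interval of the fold 1.11 to 1.36) passed the test, with an adjusted p of 0.0293, a call lost in 9 of 17 alternative settings. The F1 difference was 0.14 ± 0.068, with an adjusted p of 0.648.

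Hsc70-5 had 6.75, 6.77 and 6.84 in MPH-exposed males, against 6.62, 6.63 and 6.57 in sucrose-exposed males. In F1 males it had 6.82, 6.94 and 6.85 with an MPH-exposed mother, against 6.94, 6.76 and 6.76 with sucrose parents. The sucrose-exposed males were apart from, and below, the other 3 groups, whose values overlapped one another. The exposed-male difference of 0.18 ± 0.073 (1.13-fold) had an adjusted p of 0.238. Between F1 males of sucrose parents and sucrose-exposed males it was 0.21 ± 0.073 (1.16-fold), with an adjusted p of 0.0527. It passed in 8 of 17 alternative settings. The 2 comparisons share the sucrose-exposed males.

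The co-chaperones DnaJ-1, a J-domain protein that starts the ATP hydrolysis of Hsp70, and stv (starvin), a BAG-domain protein that binds Hsc70 and acts as an exchange factor in muscle, had group means within 0.159 and 0.167 of each other. DnaJ-1 had 6.70, 6.69 and 6.79 in F1 males of MPH-exposed mothers, against 6.66, 6.56 and 6.49 in F1 males of sucrose parents. With MPH the exposed males had 6.64, 6.72 and 6.71, against 6.61, 6.62 and 6.69 with sucrose. The F1 groups lay apart by a small margin, with a difference of 0.16 ± 0.069 and an adjusted p of 0.611, and the exposed groups overlapped. The gene stv had 5.19, 5.05 and 4.96 in F1 males of MPH-exposed mothers, against 5.0, 5.0 and 4.85 in F1 males of sucrose parents. It had 4.77, 5.0 and 4.99 in MPH-exposed males, against 4.96, 4.92 and 4.82 in sucrose-exposed males. Both pairs of stv groups overlapped, and the interval of the exposed-male fold ran from 0.890 to 1.16.

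Hsf is the transcription factor of the heat shock response and is itself controlled mainly after translation. Its signals were 4.82, 4.89 and 4.8 in F1 males of MPH-exposed mothers, against 5.0, 4.61 and 4.78 in F1 males of sucrose parents. In MPH-exposed males they were 5.02, 5.02 and 5.26, against 4.81, 4.95 and 5.06 in sucrose-exposed males. All neighbouring groups overlapped, and Hsf had the largest pooled within-group SD of the 10 genes, 0.137, against a median of 0.102 over 5736 genes. The difference was 0.16 ± 0.103 in exposed males, with an adjusted p of 0.544, and 0.044 ± 0.103 in F1 males, with an adjusted p of 0.949. The pooled SD was 0.043 for Hsc70-4 and 0.053 for Hsp60A, and 1.8% and 5.4% of those genes had a smaller one.

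**Figure D2:**
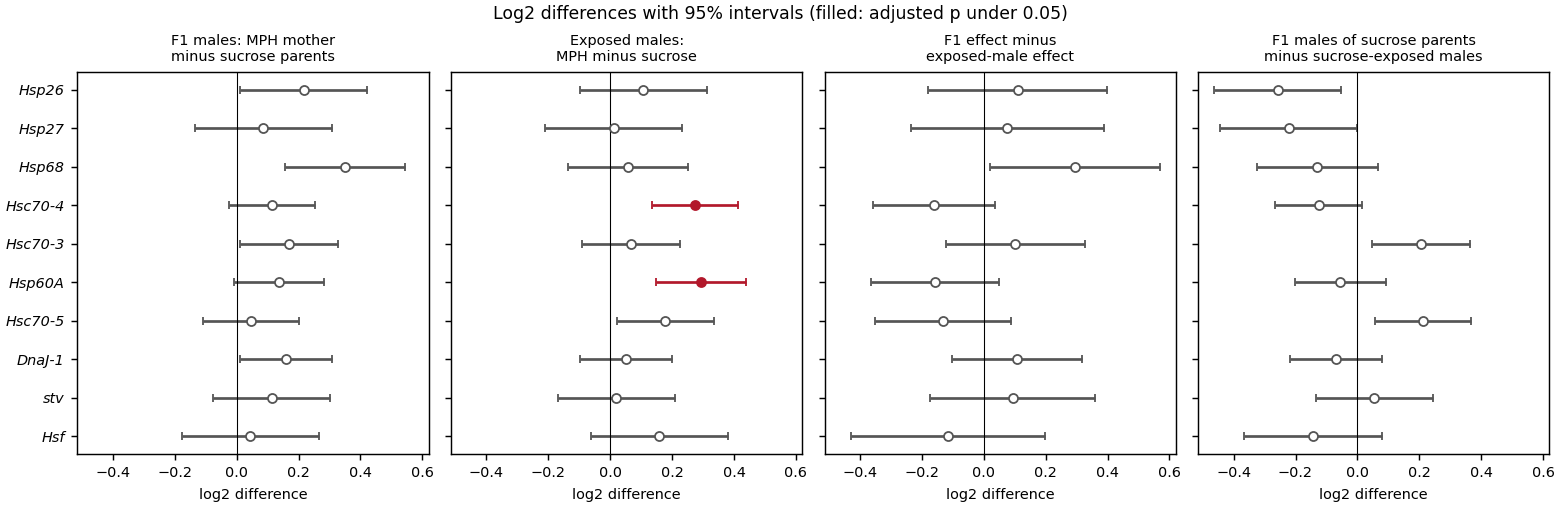
Log2 differences of the 10 genes in the 4 comparisons, with 95% intervals from the limma fit, filled where the adjusted p was under 0.05. All 10 points lie above 0 in both MPH comparisons, and only Hsp60A and Hsc70-4 in exposed males are filled.

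In exposed males, which ask how 24 hours of MPH changed these transcripts, Hsp60A and Hsc70-4 rose, and no gene of the 10 fell. The probe sets called higher made up 2.38% of all tested, and the genes called higher 3.24% of all genes. The median difference of the 10 genes was 0.087, against -0.015 over all probe sets, and 3 of the 10 had all MPH arrays above all sucrose arrays, as did 9.28% of probe sets. An unadjusted p under 0.05 was reached by 3 of the 10, against 15.3% of probe sets. Of the probe sets called, 447 were higher and 182 lower in MPH-exposed males, and 479 and 347 after quantile normalization. The call of Hsc70-4 did not hold with any 1 of the 6 exposed-male arrays left out (adjusted p = 0.0561 to 0.128), and that of Hsp60A held, of the same 6 fits, only without MPH-exposed replicate 1 (adjusted p = 0.0355, and up to 0.103 in the others). Both calls were lost with median centring (adjusted p = 0.0561 and 0.0587) and in a fit of the 6 exposed-male arrays alone, and that of Hsc70-4 also with quantile normalization (adjusted p = 0.0678).

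The 3′ minus 5′ signal of the GAPDH control probe sets, a sign of RNA integrity, was 1.5 ± 0.003 in MPH-exposed males and 1.62 ± 0.086 in sucrose-exposed males (SD, n = 3, exact permutation p = 0.1, two-sided, the smallest that 3 against 3 arrays allow). With it as a covariate the difference of Hsp60A was 0.25, with an adjusted p of 0.439, and that of Hsc70-4 was 0.23, with an adjusted p of 0.466. Of the tissue markers, 1 of 5 fat body genes rose, with a summed log2 level of 10.45 to 10.98 in MPH-exposed males against 10.11 to 10.39 in sucrose-exposed males. All 5 had higher means with MPH, with a median difference of 0.32. The widest gap was that of Sodh1, which averaged 8.87 with MPH against 7.53 with sucrose. Of 5 gut genes, 2 rose and 2 fell, at 10.73 to 11 with MPH against 10.86 to 11.10 with sucrose. The 10 testis markers, of which 6 averaged at least 3 over the arrays and the dimmest 0.21, included none that passed, and their summed level was 11.50 to 11.63 with MPH against 11.71 to 11.81 with sucrose. All 5 muscle markers had lower means with MPH without passing, with a median difference of -0.22 and summed levels of 9.79 to 10.16 with MPH against 10.16 to 10.27 with sucrose. The 5 accessory gland markers were lower as well (median -0.18) and the 5 hemocyte markers higher (median 0.18), none of them past the threshold. Lower means without passing were also found for the 3 eye markers. Their summed levels lay apart, at 9.09 to 9.13 with MPH against 9.16 to 9.29 with sucrose. The part of these tissues in the chaperone differences was not tested.

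**Figure D3:**
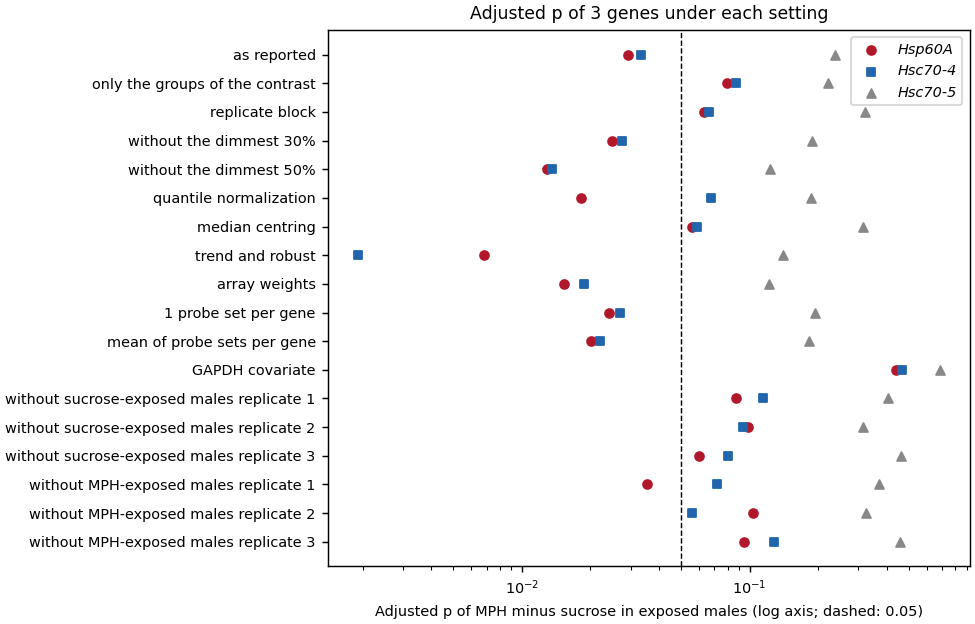
Adjusted p (log axis) of the MPH minus sucrose difference in exposed males for Hsp60A, Hsc70-4 and Hsc70-5 under each analysis setting, with 0.05 dashed. Hsp60A and Hsc70-4 lie on both sides of the line, from 0.00683 and 0.0019 to 0.439 and 0.466 with the GAPDH covariate. As reported they lie at 0.0293 and 0.0333. Hsc70-5 lies to the right of the line under all settings shown.

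Between the F1 groups, which ask whether a mother's exposure left a difference in her sons, 6 of the 10 genes had every array of MPH-exposed mothers above every array of sucrose parents: Hsp26, Hsp60A, Hsp68, Hsc70-3, Hsc70-4 and DnaJ-1. That held for 7.56% of probe sets. Since the 10 were chosen with earlier results of these data known, these shares are described and not tested against each other. An unadjusted p under 0.05 was reached by 4 of the 10, against 8.06% of probe sets, and none passed after adjustment. The median difference was 0.125 over the 10 genes and 0.026 over all probe sets. F1 replicate 3 of sucrose parents was the lowest or tied for the lowest array of its group in 8 of the 10 genes, replicate 1 was above its group mean in 10 of 10, and the whole array of replicate 3 had the low median given above. Without that replicate the median difference of the 10 genes was 0.11, with all 10 above 0. With median centring it was 0.061 with 8 above 0, and Hsc70-5 and Hsf had differences of -0.02 each. No tissue marker passed between the F1 groups, but the summed levels of 4 lists lay apart. In F1 males of MPH-exposed mothers, against F1 males of sucrose parents, they were 11.15 to 11.19 against 10.83 to 11.12 for fat body and 11.87 to 11.90 against 11.79 to 11.83 for accessory gland. For eye they were 8.61 to 8.68 against 8.45 to 8.59, and for gut, the lower one, 11.09 to 11.27 against 11.32 to 11.43. Their part in the chaperone differences was not tested.

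The comparison of the F1 difference with the exposed-male difference called none of the 10 genes, while it called 2.09% of probe sets and 2.87% of all genes. Only 1 of the 10, Hsp68, had an unadjusted p under 0.05, as did 15.8% of probe sets. For the pair that rose in exposed males the F1 difference minus the exposed-male difference was -0.16 ± 0.096 for Hsp60A (95% interval -0.36 to 0.05) and -0.16 ± 0.092 for Hsc70-4 (-0.36 to 0.04). These intervals include 0, with adjusted p-values of 0.467 and 0.429, so a smaller F1 difference was not shown.

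F1 males of sucrose parents were set against sucrose-exposed males to show how the generations differed without MPH, although generation cannot be told apart from food, age or handling. None of the 10 passed, while 27.6% of all genes did, and 20.5% of all probe sets, 6.33% higher and 14.2% lower. That split of 1188 higher and 2666 lower became 1740 and 1779 with median centring and 1557 and 2091 with quantile normalization. An unadjusted p under 0.05 was reached by 4 of the 10, against 30.6% of probe sets, and 4 of the 10 had groups without overlap, against 32.9%. Differences above 0 were found for 3 of the 10 genes, 38.3% of all genes and 42.3% of probe sets. With either scaling Hsc70-3 and Hsc70-5 were called higher in F1 males of sucrose parents (adjusted p = 0.0142 to 0.0262). Over all 17 alternative settings they were called in 5 and 8. Hsp26 differed by -0.26 ± 0.095 without overlap (adjusted p = 0.0739), and passed as lower in 4 of 17 alternative settings (adjusted p from 0.0353). These were the fits without the dimmest 50% of probe sets, with trend and robust settings, without sucrose-exposed replicate 2 and without F1 replicate 1 of sucrose parents. Hsc70-4 differed by -0.125 ± 0.065 without overlap (adjusted p = 0.218). In the same comparison 8 of 10 testis and 3 of 3 eye markers fell, and 4 of 5 fat body and 4 of 5 muscle markers rose. Markers of accessory gland (4 of 5), gut (3 of 5) and the female-specific list (1 of 4) rose as well. No neuron or hemocyte marker passed. The part of any tissue in the chaperone differences was not tested.

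Beyond the 10 genes, 89 other chaperone genes of 8 classes were measured. In exposed males 4 of them rose and 1 fell, or 5.62% called, against 4.58% of all 11982 genes, and their median difference was 0.004. CG11267, listed as Hsp10, the co-chaperonin that caps the Hsp60 chamber, had 6.04, 5.86 and 5.86 in MPH-exposed males, against 5.48, 5.35 and 5.44 in sucrose-exposed males, and rose 1.41-fold (adjusted p = 0.0135). The cytosolic chaperonin subunits CCT6 and CCT7 rose 1.29-fold (adjusted p = 0.0217) and 1.22-fold (adjusted p = 0.0493). Phb2, a prohibitin of the inner mitochondrial membrane, rose 1.34-fold (adjusted p = 0.0138). The gene that fell was wbl (windbeutel), a disulfide-isomerase-like protein of the endoplasmic reticulum, with 4.64, 4.63 and 4.46 with MPH, against 4.96, 4.94 and 5.0 with sucrose (adjusted p = 0.017). By class, 3 of 19 chaperonin and prefoldin genes and 1 of 7 mitochondrial folding genes rose, 1 of 18 genes of the endoplasmic reticulum fell, and the 4 Hsp70 and Hsp110, 2 Hsp90, 4 small heat shock, 23 J-domain and 12 co-chaperone genes held none that passed. With the GAPDH covariate none of the 5 passed (adjusted p = 0.18 to 0.488), and CCT7 did not pass with median centring. CG11267 passed in 14 of 17 alternative settings, wbl and Phb2 in 13, CCT6 in 11 and CCT7 in 8. The 5 calls became 1 without sucrose-exposed replicate 1, without sucrose-exposed replicate 3 or without MPH-exposed replicate 3, and 3 without sucrose-exposed replicate 2 or without MPH-exposed replicate 1. Over all probe sets the 629 calls became, in the same order, 404, 398 and 441, and 467 and 447.

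**Figure D4:**
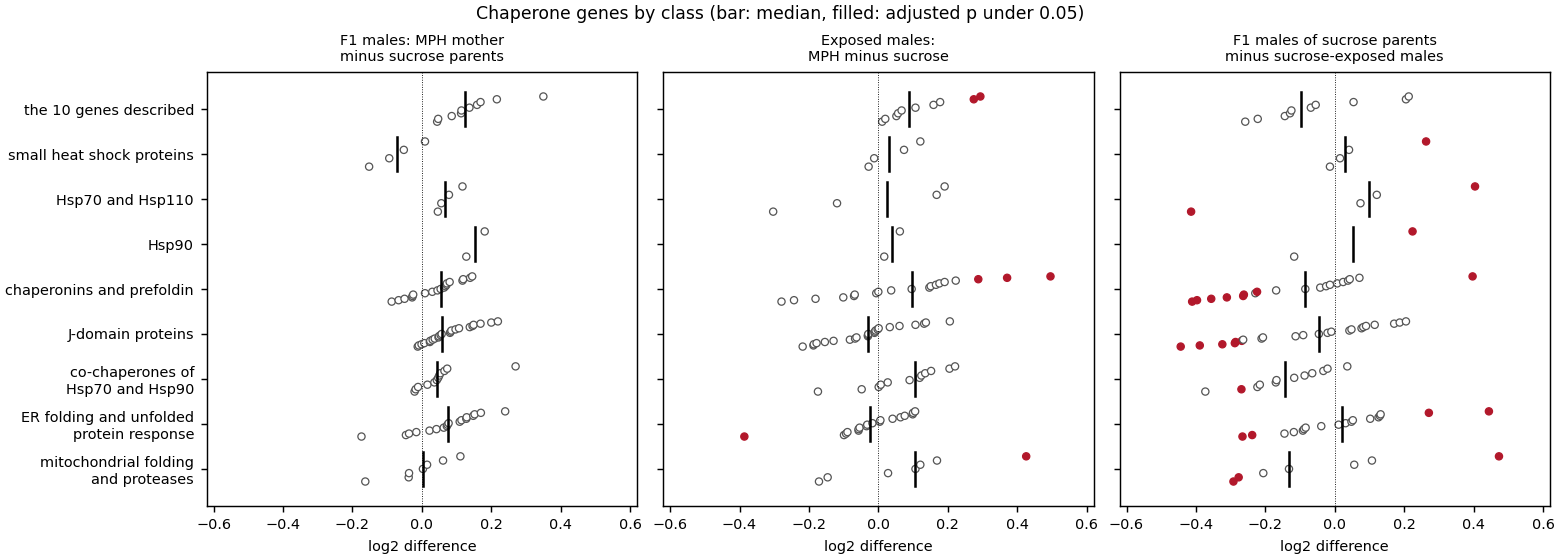
Log2 differences of the 10 genes and of 89 other chaperone genes by class in 3 comparisons, 1 point per gene, with the class median as a bar and adjusted p under 0.05 filled. In exposed males the filled points are 2 of the 10 genes, 3 chaperonin genes, Phb2 and wbl, and in F1 males none is filled.

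Between the F1 groups none of the 89 passed, 67 (75.3%) had a higher mean in sons of MPH-exposed mothers, as had 63.4% of all genes, and the median was 0.054, or -0.011 with median centring. The F1 minus exposed-male comparison called 1 of the 89, wbl, at 0.53 ± 0.116 (adjusted p = 0.0286), with 5.6, 5.51 and 5.56 in F1 males of MPH-exposed mothers and 5.34, 5.57 and 5.31 in F1 males of sucrose parents. That call was lost with the GAPDH covariate (adjusted p = 0.0932) and held in 12 of 22 alternative settings.

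Between F1 males of sucrose parents and sucrose-exposed males 7 of the 89 rose (7.87%) and 19 fell (21.3%), shares near those of all genes, 8.63% and 19.0%. Of the 89, 10 rose and 6 fell with median centring. Without sucrose-exposed replicate 1 it was 4 that rose and 7 that fell, and without F1 replicate 3 of sucrose parents 5 and 9. The calls over all 18769 probe sets moved too, from 1188 higher and 2666 lower. They became 1740 and 1779 with median centring, 823 and 1888 without sucrose-exposed replicate 1, and 1159 and 1725 without F1 replicate 3. Chaperones of the endoplasmic reticulum were among those higher in F1 males: Grp170, an exchange factor of its Hsp70, rose 1.32-fold (adjusted p = 0.00327), Gp93, its Hsp90, rose 1.17-fold (adjusted p = 0.0395), and wbl and CaBP1 rose 1.36-fold and 1.21-fold. Grp170 and wbl passed in all 17 alternative settings, but Gp93 in 8 and CaBP1 in 9, with adjusted p-values of 0.268 and 0.409 with the GAPDH covariate. In that class 2 of 18 rose, wbl and CaBP1, and 2 fell, sip3 and Hrd3, which belong to the degradation of misfolded proteins there and did not pass with either median centring or quantile normalization. The mitochondrial CG11267 and Phb2 rose by 0.40 and 0.47, and ClpP and YME1L, mitochondrial proteases, fell by 0.29 and 0.28. YME1L did not pass with either scaling, and ClpP did not pass with median centring or with the GAPDH covariate (adjusted p = 0.0822). In the small heat shock class l(2)efl rose by 0.26 (adjusted p = 0.0366), and in the co-chaperone class Roe1, the mitochondrial exchange factor, fell by 0.27 and did not pass with either scaling. The call of l(2)efl held in 11 of 17 alternative settings.

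The genes lower in F1 males of sucrose parents included 7 of 19 chaperonin and prefoldin genes (36.8%) and 6 of 23 J-domain genes (26.1%), against 19.0% of all genes. Hsp60B and Hsp60C, relatives of Hsp60A with known roles in making sperm, fell by 0.41 (adjusted p = 0.00235) and 0.40 (adjusted p = 0.00481). CG9920 fell by 0.36 and Hsc70-2, an Hsp70 cognate, by 0.41, and the J-domain genes CG12020 and CG6693 fell by 0.39 and 0.44. These 6 were called with either scaling. Of the 19 genes that fell across all 8 classes, no other was called with median centring. Of those 19 that fell, 6 were not called with quantile normalization either. With centring the calls left were Hsp60B, Hsp60C and CG9920 of the 7 chaperonin and prefoldin genes. Of the 6 J-domain genes they were CG12020 and CG6693. The summed level of the 10 testis markers was 11.30 to 11.42 in F1 males of sucrose parents against 11.71 to 11.81 in sucrose-exposed males. That of the accessory gland markers went the other way, at 11.79 to 11.83 against 11.42 to 11.52. The part of either tissue in these differences was not tested. Hsp60A itself differed by -0.055 ± 0.068 in this comparison (adjusted p = 0.668).

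Of all genes with a mean log2 signal of at least 3, those whose pattern over the 12 arrays was most like Hsp60A were IP3K2 (Pearson r = 0.938) and Cyp6a21 (r = 0.933), and most like Hsc70-4 were Cbs (r = 0.953) and Cyp4p1 (r = 0.952). The points share the 4 groups, so a difference of 1 group weighs heavily in each r. IP3K2 makes inositol phosphates, Cbs makes cystathionine, and the 2 Cyp genes encode cytochrome P450 enzymes. All 4 had their highest mean in MPH-exposed males, as had the genes they were picked to resemble, so this is no separate observation. IP3K2 averaged 5.79 in MPH-exposed males against 5.06 in sucrose-exposed males, and Cyp6a21 5.40 against 3.65. Cbs averaged 4.17 against 3.55, and Cyp4p1 6.40 against 4.99.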

How the data were processed

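The authors deposited log2 signals of 18952 probe sets on 12 arrays. The submitters' processing notes name RMA, affy and limma, without versions or order. The log base is not stated: the hybridisation controls differed by 5.722, against 6.059 for log2 of their nominal ratio, and folds take it as log2. Of the probe sets, 183 controls were left out and 18769 tested, 13647 of them with 1 gene in the platform annotation, 402 with several and 4720 unnamed, and 13544 took their symbol from RefSeq through a gene identifier. No depth applies to arrays, and their number limits the precision.

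One limma 3.58.1 fit (R 4.3.3) of 4 group means over all 12 arrays gave every difference, with two-sided p-values adjusted by Benjamini-Hochberg over all tested probe sets and called under 0.05. The code was tested on simulated data. The 10 genes and all lists were chosen with earlier results of these data known. Of the other chaperone genes, up to 4 per class and comparison with the smallest p among those called were named, with all lists' counts over every measured member. Pearson r over the 12 arrays gave the 2 genes most like each called gene. Levels of different probe sets were not compared. The chaperone names on the lists without a probe set of their own, such as Hsp22, Hsp23, Hsp83 and the stress-inducible Hsp70 genes, and all promoter and protein sequences were not analysed here. Alternatives were another set of arrays in the fit, a replicate block, filters on dim probe sets, quantile normalization, median centring, trend and robust settings, array weights, gene-level tests, a GAPDH covariate and leaving out each array.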

Additional observations from a re-analysis of the deposited data

How the results depend on the processing

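In exposed males the count of 2 called genes became 0 with the 6 exposed-male arrays alone, with the replicate block, with median centring and with the GAPDH covariate, 1 with quantile normalization, and 0 to 1 with each array left out. With the replicate block the adjusted p was 0.063 for Hsp60A and 0.0663 for Hsc70-4 (limma). Correlations of same-numbered deviations between groups ran from -0.174 to 0.128. Different-numbered arrays were not compared, so these values cannot decide whether same-numbered arrays shared a batch or day, which the labels do not give. Dim-probe filters, trend and robust settings, array weights and gene-level fits kept both calls. Between F1 males of sucrose parents and sucrose-exposed males the count of 0 became 1 without the dimmest 30% of probe sets, with array weights and with 1 probe set per gene, 2 with quantile normalization, median centring and mean of probe sets per gene, and 3 without the dimmest 50% and with trend and robust settings, and was 0 to 1 with each array left out. No gene was called between the F1 groups or in the comparison of both MPH effects under any alternative run. Differences not called that turned sign were, between the F1 groups, Hsf at -0.002 with quantile normalization and -0.021 with median centring, and Hsc70-5 at -0.017 with centring. In exposed males these were Hsp27 at -0.005 with centring, and Hsc70-3 at -0.04, DnaJ-1 at -0.031 and Hsf at -0.019 with the GAPDH covariate. Between F1 males of sucrose parents and sucrose-exposed males these were Hsp60A at 0.018 and DnaJ-1 at 0.004 with centring, and in the comparison of both MPH effects Hsp27 at -0.036 and Hsf at 0.038 with the GAPDH covariate. With each array left out in turn, differences of Hsp27 ran from -0.057 to 0.088, of Hsp68 from -0.04 to 0.134 and of stv from -0.02 to 0.096 in exposed males, of Hsp27 from -0.021 to 0.173 and of Hsf from -0.049 to 0.144 between the F1 groups, and of Hsp27 from -0.032 to 0.162 in the comparison of both effects. Over all probe sets the 629 calls in exposed males became 411 with those arrays alone, 1009 with trend and robust settings, 203 with the GAPDH covariate, and 404 and 398 without sucrose-exposed replicates 1 and 3. The 393 calls of the comparison of both effects became 616 with trend and robust settings and 209 with the covariate, and, with 1 array left out, 241 to 538, with 241 and 244 without F1 replicates 3 and 2 of MPH-exposed mothers, 258 without sucrose-exposed replicate 3 and 260 without F1 replicate 2 of sucrose parents. The causes were not tested. Each gene had 1 probe set assigned to it alone, so no other was tested, and background signal, which limits low values such as those of Hsp68, cannot be judged from the deposited values.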
